A study of Mus musculus with 8 samples.

Results

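The genes described here encode 42 proteins of the centromere and kinetochore, among them subunits of the spindle checkpoint and of the chromosomal passenger complex. They were taken from a list of symbols, and each of the 42 matched 1 Ensembl identifier among the 49315 genes counted. RNA was sequenced from heart muscle cells (cardiomyocytes) isolated from C57/Bl6 mouse embryos at embryonic day 12.5, with male and female material pooled. There were 4 control libraries and 4 libraries of cells cultured with 10 µM simvastatin, a statin that blocks the synthesis of mevalonate, the precursor of sterols and of the isoprenoid lipids. All 8 libraries share strain, stage and named cell type, and the labels name no transgene. The sources used here name neither the vehicle of the control cells nor the time in simvastatin. The design text describes treatment of isolated cells in culture, while the extraction text speaks of RNA from dissected hearts.

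The kinetochore is the protein assembly that joins a chromosome to spindle microtubules. It is built on centromeric chromatin marked by the histone variant CENP-A, through an inner layer of CENP proteins and an outer layer that grips microtubules and signals to the spindle checkpoint while any chromosome is unattached. Most of these proteins act in dividing cells, and embryonic cardiomyocytes still divide, whereas most adult cardiomyocytes have left the cell cycle. CENP-E, CENP-F and Spindly, the products of Cenpe, Cenpf and Spdl1, carry a farnesyl lipid made from mevalonate; counts of RNA do not measure that modification.

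With simvastatin 39 of the 42 genes fell and 0 rose (edgeR quasi-likelihood test, adjusted p under 0.05). Among all 16126 genes tested, 9.61% fell and 7.79% rose by the same rule. The median log2 fold change of the 42 genes was -1.55, against 0.01 over all genes tested. By size, 6 fell more than 4-fold, 26 fell between 2-fold and 4-fold, and 7 fell less than 2-fold, with 4.99% of all genes falling at least 2-fold. The 3 genes that did not pass were Cenpt, Mis12 and Mad1l1. In 40 of 42 genes the control and simvastatin libraries did not overlap, always with simvastatin lower, against 12.1% of all genes with simvastatin lower, 11% with simvastatin higher and 23.1% in either direction. At an unadjusted p under 0.05, 41 were lower and 0 higher, a share that was not counted over all genes. DESeq2 and limma-voom also gave 39 falls and 0 rises. Over all genes these 2 tests called 3534 and 2799 in either direction. All 42 genes passed the filter on low counts, and the lowest count in any library was 47, for Ska1.

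The libraries held 30474586 to 35215640 counts each. Levels are CPM, each count as a share of its library scaled to the same fixed total for all, adjusted by TMM (trimmed mean of M-values, which corrects for a few genes taking much of a library), and differences are log2 fold changes of simvastatin over control with their standard error (SE). The labels do not say whether replicates are separate cultures; p-values therefore measure the spread between these 8 libraries alone, which may be technical. In RNA from whole cultures, fewer dividing cells and less of each RNA per cell cannot be told apart. The 10 cardiomyocyte markers summed to 58572 to 69973 CPM in controls and 69343 to 73454 CPM with simvastatin, and of these Myh7 rose while 9 did not pass. Markers of other cell types were present too, and those that passed are named here after their values were seen. Fibroblast markers summed to 1145 to 2541 CPM in controls and 1236 to 1440.1 CPM with simvastatin, with 3 of 8 falling (Col3a1, Pdgfra and Tcf21), of which limma-voom called Tcf21 alone. These 3 falls lay mostly in replicates 1 and 3 of each group, set 1 by the column headers (values by set below). Macrophage markers summed to 343 to 434 and 298 to 392 CPM with 3 of 6 falling (Cd68, Adgre1 and Cx3cr1), and epicardial markers to 218 to 342 and 305 to 329 CPM with 2 of 6 falling (Wt1 and Aldh1a2) and Msln rising. Endothelial markers summed to 218 to 302 and 225 to 282 CPM with Emcn falling and 2 of 8 rising (Tek and, not called by limma-voom, Nfatc1), and smooth muscle and pericyte markers to 209.8 to 345 and 385 to 563 CPM with 2 of 6 falling (Myh11 and Pdgfrb) and Cspg4 rising. Most of the smooth muscle and pericyte sums came from Cspg4 (means of 152 CPM in controls and 315 CPM with simvastatin) and Abcc9 (116 and 137 CPM, not passed). Of 6 erythroid markers 3 were tested, and Hbb-bt and Hbb-y rose, both at low levels. Their means were 0.344 and 2.92 CPM in controls and 0.907 and 9.94 CPM with simvastatin. The part of any of these cells in the results was not tested.

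**Figure D1:**
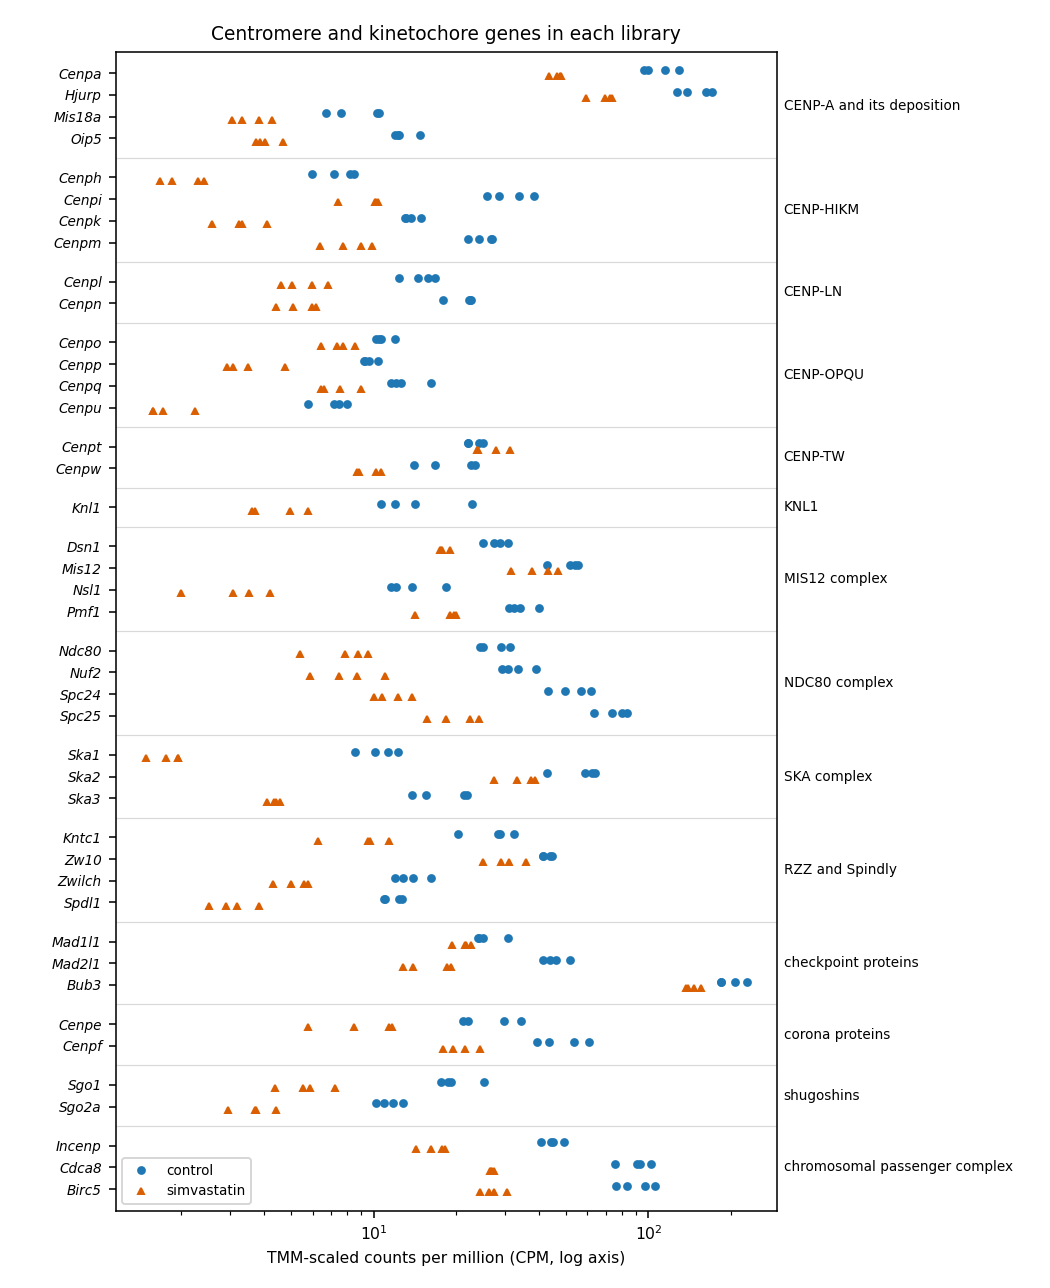
TMM-scaled CPM (log axis) of the 42 genes, 1 row per gene, in 4 control libraries (circles) and 4 simvastatin libraries (triangles), grouped by complex. Triangles lie left of circles without overlap in 39 rows that fell and in the row of Mad1l1, and overlap them in the rows of Cenpt and Mis12.

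Promoter sequence was looked at because these genes moved together. RefSeq windows of 300 bases (250 before to 50 after the annotated start, build GRCm38.p6) were searched for 37 of the 42 genes, 42 windows in all, since some genes have several starts. No window was searched for Nsl1, Spc24, Ska1, Zwilch and Incenp. Of these, Ska1, Spc24 and Nsl1 were among the genes that fell more than 4-fold. Searched on both strands, the letters CCAAT (the CCAAT box) stood in 66.7% of the 42 windows, against 37.4% of the 32851 windows of all genes. TTTGAA, the core of the cell cycle homology region, stood in 42.9% against 17.9%. Both were present in 33.3% against 6.95%. The E2F letters TTTGGCGC, TTTCCCGC, TTTGCCGC or TTTCGCGC stood in 9.52% (4 of 42 windows) against 2.26%. The windows of all genes were those of 27025 genes and were not limited to the genes tested in these cells. Among windows of genes that fell at least 2-fold, 22 of 30 held CCAAT and 14 of 30 held TTTGAA, and among the other members 6 of 12 and 4 of 12. These are counts of letters in a window, and windows of 1 gene can overlap. Starts are those of RefSeq, which can differ from the start of the counted gene. They differ for Cdca8, Cenpn, Cenpt and Oip5 of the genes printed below, and for others such as Cenpa and Mad2l1. In 35 of the 42 windows the bases after the start lay in a GENCODE transcript of the gene on the same strand. The 150 bases before the start are printed for 4 genes that had the lowest p of their complex and 1 window each, and for 2 genes that did not pass (Cenpt and Mis12), 5′ to 3′ on the gene's strand. Capitals mark CCAAT or its reverse ATTGG, and TTTGAA or its reverse TTCAAA.
Cdca8, chr4:124936918-124937067, minus strand: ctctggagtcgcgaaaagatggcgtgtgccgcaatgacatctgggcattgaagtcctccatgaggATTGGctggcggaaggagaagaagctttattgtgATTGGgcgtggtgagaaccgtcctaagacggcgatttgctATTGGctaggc
Cenpn, chr8:116921590-116921739, plus strand: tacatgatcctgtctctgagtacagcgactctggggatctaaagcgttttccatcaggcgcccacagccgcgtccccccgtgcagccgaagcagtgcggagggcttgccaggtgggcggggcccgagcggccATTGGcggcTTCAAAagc
Spdl1, chr11:34833642-34833791, minus strand: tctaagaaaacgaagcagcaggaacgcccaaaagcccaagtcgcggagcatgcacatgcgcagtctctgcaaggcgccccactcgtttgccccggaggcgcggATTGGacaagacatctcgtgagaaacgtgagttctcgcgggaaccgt
Oip5, chr2:119618506-119618655, minus strand: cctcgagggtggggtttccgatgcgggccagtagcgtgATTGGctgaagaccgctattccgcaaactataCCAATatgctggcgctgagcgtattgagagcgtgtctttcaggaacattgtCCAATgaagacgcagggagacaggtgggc
Cenpt, chr8:105852009-105852158, minus strand: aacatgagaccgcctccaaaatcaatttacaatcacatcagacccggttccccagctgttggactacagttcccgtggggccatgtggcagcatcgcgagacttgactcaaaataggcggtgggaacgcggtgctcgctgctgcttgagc
Mis12, chr11:71019461-71019610, plus strand: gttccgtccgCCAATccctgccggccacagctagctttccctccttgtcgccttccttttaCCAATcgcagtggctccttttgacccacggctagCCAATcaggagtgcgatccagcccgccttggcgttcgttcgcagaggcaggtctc
The printed stretches of Cdca8 and Oip5 each hold CCAAT letters 3 times, on the reverse strand throughout in Cdca8 and on both strands in Oip5. Cenpn has ATTGG followed by TTCAAA just before its start. Mis12, which did not pass, holds 3 CCAAT boxes in the printed stretch, and Cenpt holds none of the searched letters there. Further TTTGAA letters of Cdca8, Spdl1 and Oip5 lie after the start and are not printed.

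The 4 genes that mark and load the centromere all fell, from 2.17-fold for Hjurp to 3.15-fold for Oip5. Cenpa, the centromeric histone H3 variant (gene span chromosome 5, 30666777 to 30674830; this and later gene spans are those of the count files, build GRCm38), ranged over 96.03 to 129 CPM in controls and 43.4 to 47.9 CPM with simvastatin, which is -1.25 ± 0.11 as log2 fold change ± SE (adjusted p = 6.22e-05 in edgeR). Hjurp, the chaperone that deposits CENP-A (chromosome 1, 88262471 to 88277633), stood at 170.3, 138, 127 and 162 CPM in control replicates 1 to 4 and at 59.1, 72.7, 69.7 and 73.9 CPM in simvastatin replicates 1 to 4. Its groups were far apart, and its log2 fold change of -1.12 ± 0.12 was the least negative of this group. Oip5, a subunit of the MIS18 complex that licenses CENP-A loading (chromosome 2, 119609512 to 119618469), read 14.8, 11.9, 12.4 and 12.3 CPM in the control libraries and 3.75, 4.66, 3.87 and 4.02 CPM with simvastatin. Control replicate 1 was its highest library, all 4 simvastatin libraries were below a level of 5 CPM, and the log2 fold change was -1.66 ± 0.15 (edgeR adjusted p = 6.22e-05). Oip5 shares 9.67% of its exon length with Nusap1, which fell as well (log2 fold change -1.49). Mis18a, another MIS18 subunit, averaged 8.78 ± 1.89 CPM in controls and 3.61 ± 0.535 CPM with simvastatin (mean ± SD over 4 libraries, as for later means).

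The inner kinetochore network that binds CENP-A nucleosomes fell in its CENP-H/I/K/M and CENP-L/N arms, where 6 of 6 genes fell at least 2-fold. Cenpk had 13.7, 13.1, 14.8 and 13.01 CPM in the 4 control libraries and 3.24, 2.59, 3.32 and 4.08 CPM in the 4 simvastatin libraries. That is a 4.13-fold lower level (log2 fold change -2.05 ± 0.17, edgeR adjusted p = 4e-05). Cenpm, which fell least in this arm, had 24.3, 22.1, 26.98 and 26.8 CPM in controls and 6.36, 9.91, 7.71 and 9.02 CPM with simvastatin, a log2 fold change of -1.60 ± 0.16. Cenph went from 7.46 ± 1.14 to 2.06 ± 0.3597 CPM and Cenpi from 31.7 ± 5.603 to 9.51 ± 1.41 CPM, with log2 fold changes of -1.86 and -1.74. In the pair that recognises the CENP-A nucleosome, Cenpn (chromosome 8, 116921730 to 116941507) stood at 22.7, 17.9, 22.4 and 22.3 CPM in controls and 4.41, 5.99, 5.096 and 6.16 CPM with simvastatin, a log2 fold change of -1.98 ± 0.16. Its partner Cenpl read 16.7, 12.4, 15.7 and 14.5 CPM in controls and 5.04, 6.82, 4.61 and 5.96 CPM with simvastatin, with -1.40 ± 0.17. The groups were separate for both genes, and control replicate 2 was the lowest control in each.

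The 4 genes of the CENP-O/P/Q/U arm, which stabilises attachments, all fell but by different amounts. Cenpu read 7.18, 7.46, 5.75 and 8.03 CPM in controls and 1.58, 2.25, 1.58 and 1.71 CPM with simvastatin, a 3.98-fold lower level (log2 fold change -1.99 ± 0.20, edgeR adjusted p = 9.16e-05). It shares 26.7% of its exon length with Primpol, which did not pass (log2 fold change -0.26). Cenpo read 11.99, 10.7, 10.4 and 10.2 CPM in controls and 7.75, 7.37, 8.55 and 6.45 CPM with simvastatin, so the groups did not overlap, but the fall was only 1.44-fold (log2 fold change -0.52 ± 0.14, edgeR adjusted p = 0.0274). That call ended with control replicate 1 or 2 or simvastatin replicate 1, 2 or 4 left out (adjusted p 0.0515 to 0.0714), with no filter on low counts (0.0766) and in set 1 alone (0.234; replicates 1 and 3 of each group, by the column headers). Cenpo shares 19.0% of its exon length with Adcy3 (log2 fold change -0.59, edgeR adjusted p = 0.167) and 3.47% with Ptrhd1. Cenpp went from 9.62 ± 0.517 to 3.57 ± 0.838 CPM and Cenpq from 13.1 ± 2.07 to 7.400 ± 1.18 CPM, with log2 fold changes of -1.43 and -0.82. Whether counting used strand is not stated in the sources at hand, and without strand the reads of such overlapping pairs cannot be told apart.

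CENP-T and CENP-W form a histone-fold pair on centromeric DNA, and of their genes Cenpw passed and Cenpt did not. Cenpt, whose protein reaches out to the NDC80 complex (chromosome 8, 105844673 to 105853278), stood at 24.1, 22.02, 25.04 and 22.01 CPM in controls and 31.4, 24.02, 27.8 and 23.8 CPM with simvastatin. The groups overlapped, and the log2 fold change of 0.20 ± 0.12 had a 95% interval of -0.07 to 0.47 (edgeR adjusted p = 0.322). Cenpw (chromosome 10, 30194569 to 30200560) read 22.7, 14.1, 23.4 and 16.7 CPM in controls and 10.7, 8.84, 8.71 and 10.2 CPM with simvastatin, a log2 fold change of -1 ± 0.18 (edgeR adjusted p = 0.0036). Its control replicates 1 and 3, the 2 libraries of set 1, were higher than replicates 2 and 4.

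In the outer kinetochore, all 4 genes of the microtubule-binding NDC80 complex fell, with log2 fold changes from -2.17 to -1.80. Spc24, at the end that anchors the complex to the kinetochore (chromosome 9, 21755442 to 21760303), stood at 56.7, 43.1, 61.6 and 49.6 CPM in controls and 13.8, 10.8, 9.999 and 12.3 CPM with simvastatin. This 4.5-fold fall (log2 fold change -2.17 ± 0.15, edgeR adjusted p = 2.04e-05) left every simvastatin library far below the lowest control, which was replicate 2. Ndc80, at the end that grips the microtubule (chromosome 17, 71496100 to 71526857), read 31.2, 24.4, 25.1 and 29.00 CPM in controls and 5.42, 8.78, 7.87 and 9.51 CPM with simvastatin (log2 fold change -1.80 ± 0.18). Simvastatin replicate 1 was the lowest library for Ndc80 and the highest of the treated libraries for Spc24. Nuf2, the partner of Ndc80, went from 33.2 ± 4.29 to 8.27 ± 2.18 CPM and Spc25, the partner of Spc24, from 75.2 ± 8.79 to 20.2 ± 3.900 CPM.

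The KNL1 scaffold and the MIS12 complex complete this outer core. Knl1, the scaffold on which checkpoint proteins gather (chromosome 2, 119047119 to 119105501), stood at 22.7, 11.9, 10.7 and 14.1 CPM in controls and 3.72, 4.95, 3.61 and 5.76 CPM with simvastatin. Control replicate 1 was well above the other 3 controls, the groups were separate, and the log2 fold change was -1.72 ± 0.26 (edgeR adjusted p = 0.00133). The MIS12 complex, which ties the inner to the outer kinetochore, was uneven. Nsl1 (chromosome 1, 191063012 to 191086474) read 18.3, 12.1, 11.6 and 13.8 CPM in controls and 1.98, 3.08, 3.52 and 4.21 CPM with simvastatin, a 4.36-fold fall (log2 fold change -2.12 ± 0.24, edgeR adjusted p = 0.00024). Mis12 (chromosome 11, 71019611 to 71027371) read 55.5, 53.9, 42.6 and 51.6 CPM in controls and 31.6, 43.02, 37.7 and 46.9 CPM with simvastatin. Its control replicate 3 lay among the simvastatin libraries, and its log2 fold change of -0.35 ± 0.14 (95% interval -0.67 to -0.04) did not pass (edgeR adjusted p = 0.117). Mis12 shares 7.69% of its exon length with Derl2, which did not pass (log2 fold change 0.09). The other subunits fell less than 2-fold. Dsn1 went from 28.00 ± 2.495 to 17.9 ± 0.745 CPM and Pmf1 from 34.4 ± 4.01 to 18.1 ± 2.74 CPM.

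The SKA complex, which helps the NDC80 complex hold on to shortening microtubules, held the largest fall of the 42 genes. Ska1 stood at 12.3, 8.58, 11.3 and 10.1 CPM in controls and 1.48, 1.76, 1.94 and 1.94 CPM with simvastatin, a 5.94-fold lower level (log2 fold change -2.57 ± 0.18, edgeR adjusted p = 2.04e-05). Ska2 (chromosome 11, 87109234 to 87124635) read 62.2, 58.8, 42.8 and 63.8 CPM in controls and 27.5, 37.3, 33.2 and 38.7 CPM with simvastatin, a 1.66-fold fall (log2 fold change -0.73 ± 0.15, edgeR adjusted p = 0.00808). Control replicate 3 was close to the simvastatin libraries for Ska2, while for Ska1 no control came near them. Ska3 went from 18.1 ± 4.06 to 4.36 ± 0.2000 CPM, a log2 fold change of -2.05.

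The corona is the fibrous outermost layer, where the ROD-ZW10-Zwilch complex, Spindly and the motor CENP-E gather before attachment. Spdl1, which encodes Spindly, the adaptor that brings dynein (chromosome 11, 34809190 to 34833641), read 12.7, 11.04, 10.9 and 12.3 CPM in controls and 3.18, 2.91, 2.52 and 3.82 CPM with simvastatin (log2 fold change -1.92 ± 0.17, edgeR adjusted p = 5.51e-05). Zw10, whose protein also serves membrane traffic between the endoplasmic reticulum and the Golgi (chromosome 9, 49055613 to 49078775), read 41.3, 43.7, 41.3 and 44.7 CPM in controls and 24.95, 35.8, 29.00 and 30.98 CPM with simvastatin. These groups were apart by a small margin, the log2 fold change was -0.50 ± 0.12 (edgeR adjusted p = 0.0161), and the call ended without simvastatin replicate 3 (adjusted p = 0.0501). Kntc1, which encodes ROD, went from 27.5 ± 5.11 to 9.22 ± 2.12 CPM and Zwilch from 13.7 ± 1.85 to 5.16 ± 0.648 CPM, with log2 fold changes of -1.58 and -1.41. Cenpe, a kinesin that moves chromosomes to the spindle equator (chromosome 3, 135212537 to 135273611), stood at 34.3, 21.99, 21.2 and 29.9 CPM in controls and 5.77, 11.7, 8.48 and 11.4 CPM with simvastatin (log2 fold change -1.52 ± 0.24). Cenpf, a large coiled-coil protein that binds microtubules (chromosome 1, 189640606 to 189688086), read 60.9, 43.3, 39.3 and 53.8 CPM in controls and 17.9, 24.4, 21.6 and 19.4 CPM with simvastatin (log2 fold change -1.24 ± 0.16). Control replicates 1 and 4 were the higher controls for both genes, and the simvastatin libraries stayed below every control.

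Of 3 checkpoint genes, Mad2l1 fell 2.84-fold, Bub3 fell by less, and Mad1l1 did not pass. Mad2l1, which encodes the MAD2 protein that holds back the anaphase-promoting complex (chromosome 6, 66535390 to 66547220), stood at 51.9, 41.4, 46.04 and 43.9 CPM in controls and 12.8, 18.5, 13.9 and 19.2 CPM with simvastatin (log2 fold change -1.51 ± 0.15, edgeR adjusted p = 0.000115). Mad1l1, its kinetochore receptor (chromosome 5, 140008689 to 140321552), read 23.9, 25.01, 30.8 and 24.3 CPM in controls and 19.2, 22.6, 21.5 and 21.6 CPM with simvastatin. The Mad1l1 groups did not overlap, yet its log2 fold change of -0.29 ± 0.12 (95% interval -0.56 to -0.03) did not pass (edgeR adjusted p = 0.133). Bub3, which docks the BUB kinases on KNL1 (chromosome 7, 131560222 to 131571895), went from 200.3 ± 21.6 to 145 ± 8.01 CPM, a 1.39-fold fall (edgeR adjusted p = 0.00769).

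The shugoshins, which protect cohesin at centromeres, and the chromosomal passenger complex, which corrects faulty attachments, fell throughout. Sgo1 (chromosome 17, 53674786 to 53689333) stood at 25.1, 18.7, 17.6 and 19.1 CPM in controls and 4.38, 7.23, 5.55 and 5.89 CPM with simvastatin, a log2 fold change of -1.80 ± 0.19. Sgo2a (chromosome 1, 57995971 to 58025899) read 10.9, 11.7, 10.2 and 12.8 CPM in controls and 2.96, 4.41, 3.71 and 3.72 CPM with simvastatin, with -1.62 ± 0.17; it shares 35% of its exon length with Kctd18, which did not pass (log2 fold change 0.27). In the passenger complex Cdca8, which encodes borealin (chromosome 4, 124918465 to 124939311), read 90.9, 75.6, 103 and 93.1 CPM in controls and 26.97, 26.8, 26.5 and 27.5 CPM with simvastatin. The simvastatin libraries of Cdca8 lay close together, well below every control, and its adjusted p of 1.46e-05 in edgeR was the smallest of the 42 genes (log2 fold change -1.75 ± 0.11). Incenp, the scaffold of the complex (chromosome 19, 9872297 to 9899533), read 44.3, 49.3, 40.5 and 45.02 CPM in controls and 14.3, 16.2, 18.1 and 17.8 CPM with simvastatin, a log2 fold change of -1.43 ± 0.12. Birc5, which encodes survivin, ranged over 76.1 to 106 CPM in controls and 24.4 to 30.6 CPM with simvastatin.

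**Figure D2:**
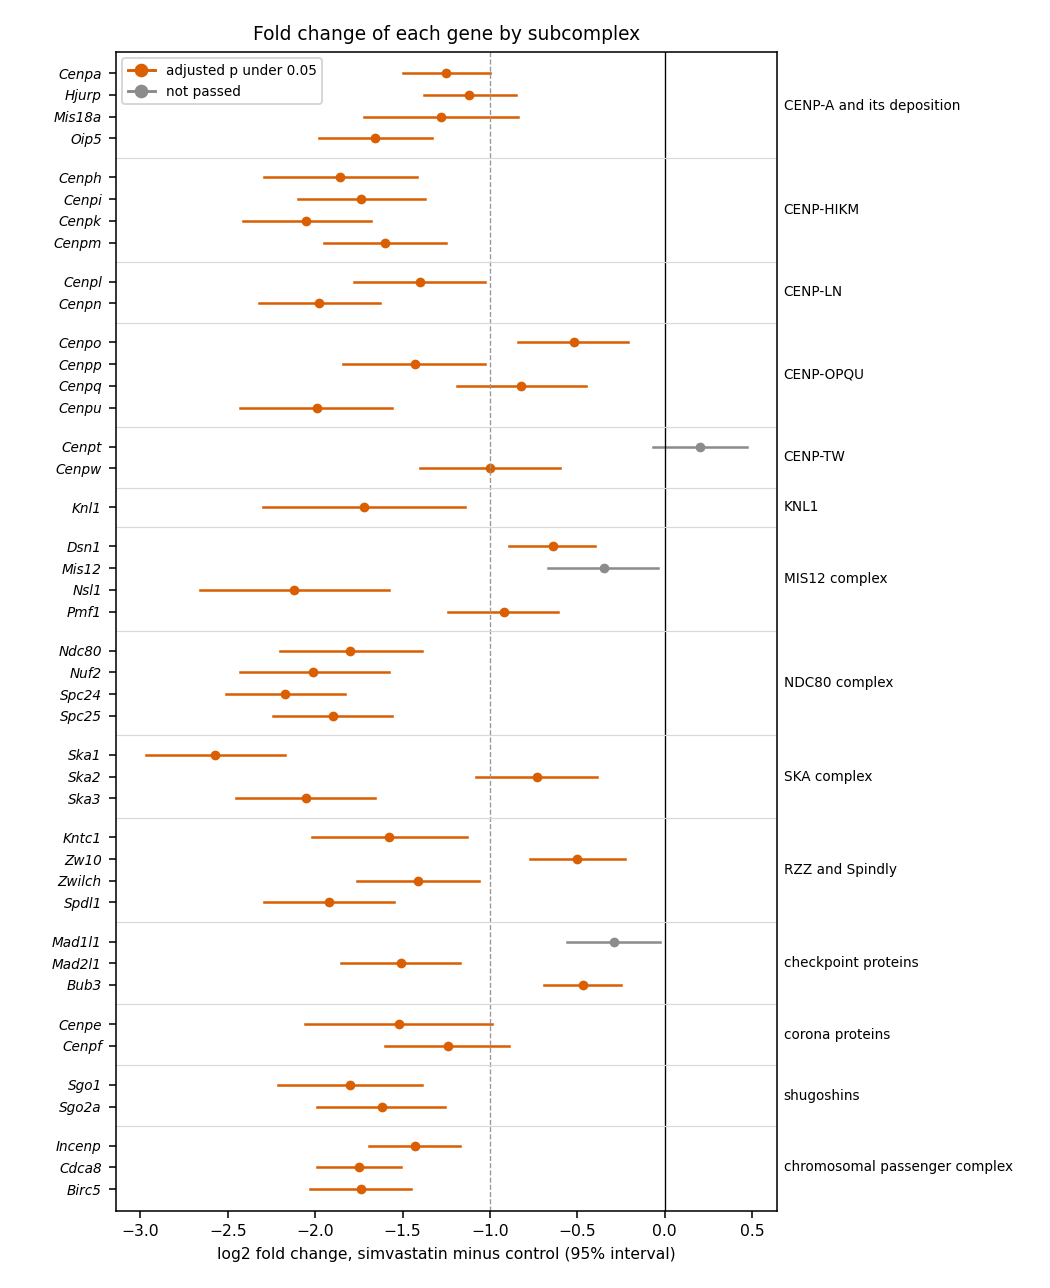
Log2 fold change of simvastatin over control with its 95% interval for each of the 42 genes, grouped by complex. The dashed line marks a 2-fold fall. The 3 grey genes, Cenpt, Mis12 and Mad1l1, did not pass, and the values run from -2.57 for Ska1 to 0.20 for Cenpt.

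Subunits of 1 complex had different log2 fold changes, which their ratios show library by library. Ratios were taken per gene length (RPKM, CPM divided by the kilobases that all counted exons of a gene cover). They were taken between the lowest and the highest log2 fold change of each complex, so they carry no test. The log2 ratio of Ska1 to Ska2 was -2.04, -2.48, -1.63 and -2.37 in control replicates 1 to 4 and -3.92, -4.12, -3.81 and -4.02 in simvastatin replicates 1 to 4. For Nsl1 over Mis12 it was -2.42, -2.98, -2.70 and -2.73 in controls and -4.81, -4.62, -4.24 and -4.30 with simvastatin. In both complexes every simvastatin library lay below every control. The mean log2 ratio of Cenpu to Cenpo moved from 0.24 ± 0.23 to -1.23 ± 0.33 (SD, n = 4 per group), of Spdl1 to Zw10 from -1.72 ± 0.12 to -3.14 ± 0.34, of Mad2l1 to Mad1l1 from -0.38 ± 0.23 to -1.62 ± 0.22, and of Cenpw to Cenpt from -0.52 ± 0.27 to -1.68 ± 0.19. Ratios of Cenpk to Cenpm, Spc24 to Ndc80, Cenpe to Cenpf, Sgo1 to Sgo2a and Cdca8 to Incenp overlapped between the groups. For Spc24 over Ndc80 the means were 0.71 ± 0.24 and 0.36 ± 0.51, and for Sgo1 over Sgo2a 1.69 ± 0.28 and 1.51 ± 0.07.

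**Figure D3:**
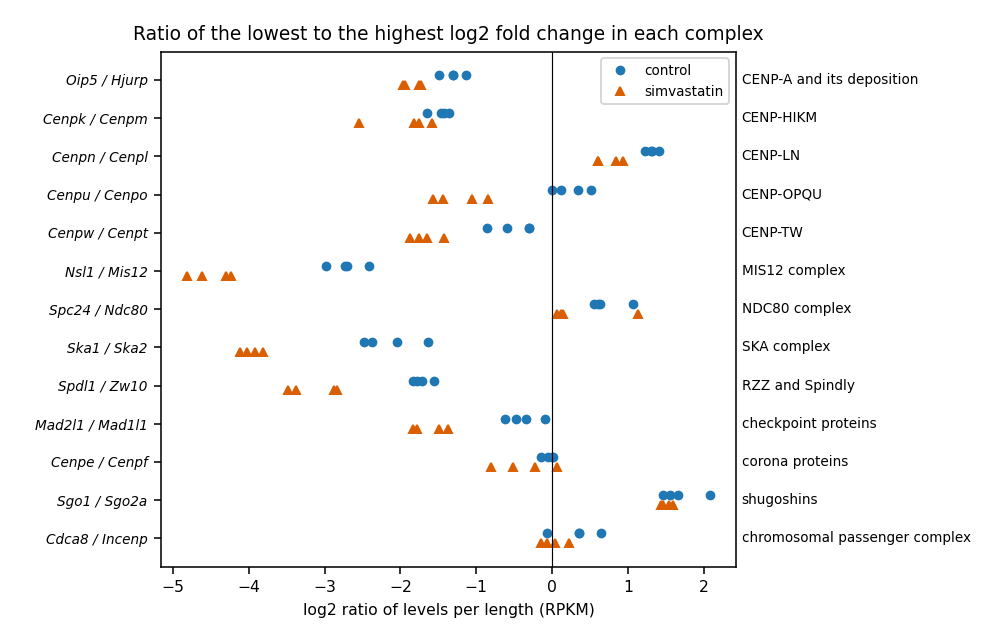
Log2 ratio of levels per length (RPKM) between the gene with the lowest and the gene with the highest log2 fold change of each complex, in 4 control (circles) and 4 simvastatin libraries (triangles). The ratios of Ska1 to Ska2 and Nsl1 to Mis12 shift furthest, and those of Cenpk to Cenpm, Spc24 to Ndc80, Cenpe to Cenpf, Sgo1 to Sgo2a and Cdca8 to Incenp overlap.

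Per length, Bub3 had the highest level of the 42 genes in both groups, 28.6 ± 3.08 RPKM in controls and 20.6 ± 1.14 RPKM with simvastatin. The order between genes rests on the length of all counted exons, not on that of the transcripts present. In controls it was followed by Birc5 at 26.7 ± 3.92 RPKM, Spc25 at 23.6 ± 2.76 RPKM, Cenpm at 20.8 ± 1.93 RPKM and Spc24 at 20.5 ± 3.14 RPKM, neighbours whose spreads overlap. With simvastatin the genes after Bub3 were Mis12 at 13.3 ± 2.22 RPKM and Ska2 at 10.4 ± 1.54 RPKM, then Hjurp at 8.26 ± 0.808 and Birc5 at 7.98 ± 0.772 RPKM. Mis12 and Ska2 had stood at 16.95 ± 1.91 and 17.4 ± 2.95 RPKM in controls, below Spc24 and Spc25, which had 4.55 ± 0.659 and 6.32 ± 1.22 RPKM with simvastatin. The lowest levels with simvastatin were those of Cenpu at 0.445 ± 0.0795 RPKM, and of Knl1 and Sgo2a at 0.528 ± 0.121 and 0.528 ± 0.0842 RPKM.

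**Figure D4:**
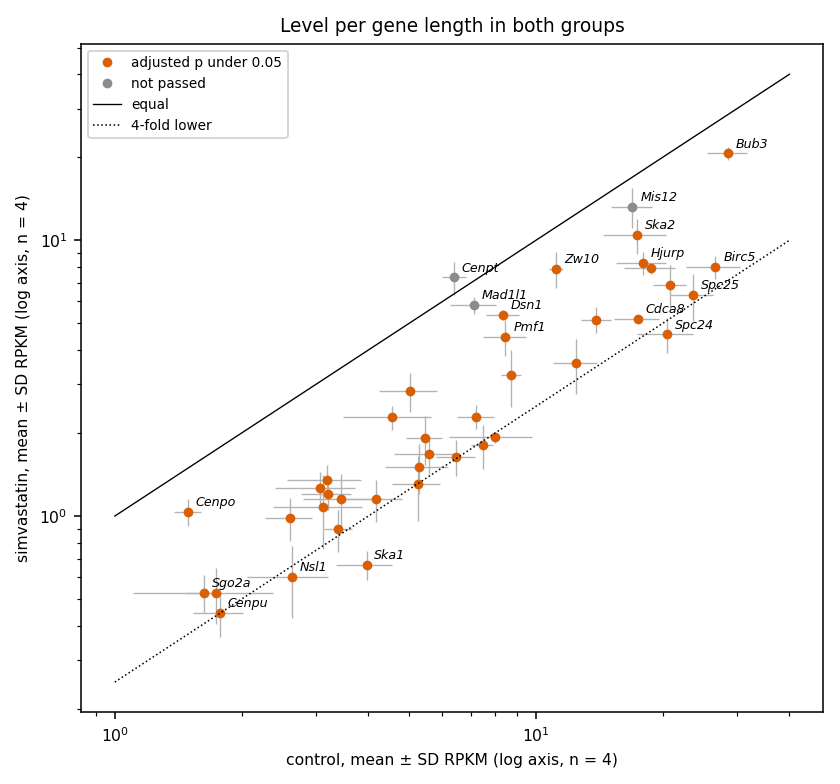
Mean level per gene length (RPKM, log axes) of the 42 genes in control and simvastatin libraries, with SD of 4 libraries each. The solid line marks equal levels and the dotted line a 4-fold lower level. Cenpt lies just above the solid line, Mis12, Mad1l1 and Bub3 a little below it, and Ska1 furthest below the dotted line.

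The header of each count column names a set, and replicates 1 and 3 of each group are in set 1, replicates 2 and 4 in set 2, and the sources used here do not say what a set was. Within set 1 the median log2 fold change of the 42 genes was -1.81 and within set 2 -1.34, and in 39 of 42 genes the estimate was more positive in set 2, all but Cenpt, Cenpo and Incenp. Among all genes tested 52.9% had a more positive estimate in set 2, and among the 1549 genes that fell 82.1%. For no gene of the 42 did the difference between sets pass (0 genes, interaction term in edgeR, smallest adjusted p = 0.179, for Mad2l1), with 0.0558% of all genes passing. An unadjusted p under 0.05 was reached by 7 of the 42 genes, against 11.5% of all genes. Mad2l1 had log2 fold changes of -1.89 in set 1 and -1.18 in set 2, Spc25 -2.28 and -1.56, and Knl1 -2.20 and -1.28. Leaving out control replicate 3 leaves set 1 with 1 control library. The log2 difference (set 2 minus set 1) was then 1.36 for Knl1, 0.80 for Mad2l1 and 0.75 for Spc25. With all libraries it was 0.90, 0.70 and 0.71. These genes were picked after the values of that fit were seen. Fibroblast markers differed between the sets as well: 3 of 8 passed the interaction test (Col1a2, Col3a1 and Tcf21), and Col3a1 stood at 553, 274, 579.6 and 302 CPM in control replicates 1 to 4. The median log2 fold change of the 8 was -1.14 in set 1 and 0.12 in set 2. Of the fibroblast markers called as falling, Col3a1 had -1.61 and -0.07, Pdgfra -2.21 and -0.20, and Tcf21 -2.63 and -0.17. Whether those cells have a part in the difference was not tested. Control replicate 1 was the highest control for 24 of the 42 genes and simvastatin replicate 1 the lowest treated library for 30. This order was not counted over all genes. The median log2 difference of the 42 genes from their control mean was 0.15, -0.14, -0.05 and 0.01 in control replicates 1 to 4. It was -1.73, -1.33, -1.52 and -1.27 in simvastatin replicates 1 to 4.

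**Figure D5:**
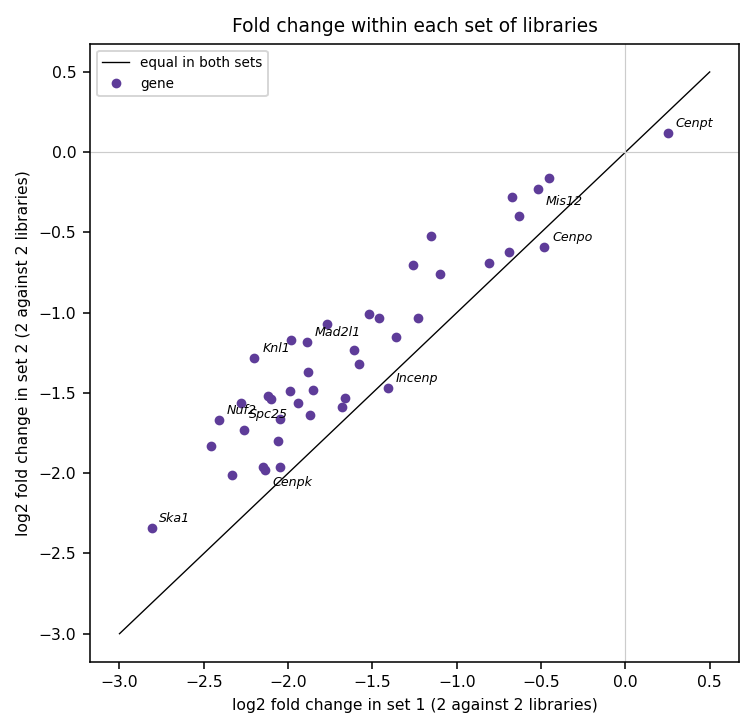
Log2 fold change of each of the 42 genes within set 2 against that within set 1, each from 2 simvastatin and 2 control libraries. The line marks equal values. Of the 42 points, 39 have a more positive estimate in set 2, and Cenpo, Incenp and Cenpt lie below the line.

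Lists of related genes, drawn up alongside the 42, were mixed. Of 13 other centromere and kinetochore genes 5 fell and 0 rose in edgeR. Their median log2 fold change was -0.14, DESeq2 and limma-voom also gave 0 rises, and at an unadjusted p under 0.05 6 were lower and Cenpb was higher. Kif2c, a kinesin that dismantles microtubules at centromeres, fell with -1.90, Spag5 with -1.61 and Knstrn with -1.35, the last 2 encoding partners on the spindle. Of 10 other checkpoint and passenger genes 9 were tested, and 8 of these fell and 0 rose in edgeR, DESeq2 and limma-voom alike (0 higher at an unadjusted p under 0.05), with a median of -2. Plk1, Aurkb and Bub1b, which encode mitotic kinases or a kinase-like checkpoint protein, fell with log2 fold changes of -2.18, -2.30 and -1.73. In contrast, 0 of 14 subunits of the anaphase-promoting complex, the ubiquitin ligase that the checkpoint restrains, passed in edgeR, with a median of -0.01 and a range of -0.21 to 0.28. At an unadjusted p under 0.05 2 of them were higher, Anapc2 (0.28) and Anapc5 (0.17), and DESeq2 called 1, Anapc2, and limma-voom 0. Of 15 genes of cohesin, the ring that holds sister chromatids together, and its regulators, 4 fell and 0 rose in edgeR, with a median of -0.22 (0 rises by DESeq2 and limma-voom too, with Pttg1 higher at an unadjusted p under 0.05). The 3 with the smallest p were Cdca5, which encodes sororin, Esco2, a cohesin acetyltransferase, and Espl1, which encodes separase, with log2 fold changes of -2.10, -2.38 and -1.78, and the fourth was Rad21, a ring subunit.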

How the data were processed

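RNA of 4 control and 4 simvastatin libraries was analysed, grouped by the sample titles. The deposited values are raw counts for each gene. The submitters' processing notes list featureCounts, Subread 1.5.2, STAR 2.5.2b and Trimmomatic 0.36, with the builds GRCm38 and mm10. The sources used here give neither the strand setting nor the annotation release. Identifiers matched GENCODE symbols for 99.3% of 49315 genes, and coordinates are the files' own (1-based). The SE did not follow the counts alone. It was 0.18 for Ska1, with a lowest count of 47, and 0.26 for Knl1, with a lowest count of 112.

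Genes were kept by filterByExpr (16126 of 32927 with any count) and tested with edgeR 4.0.16 (R 4.3.3), quasi-likelihood F test, TMM scaling, treatment as the only term, two-sided, Benjamini-Hochberg over all genes at 0.05. Differences between sets used an interaction term. The main fit was first tested on simulated counts, where 12.7% of 1.5-fold, 70.3% of 2-fold and 93.8% of 4-fold changes were recovered. Of the calls 4.96% were false. The simulation changed 71, 64 and 65 of 16126 genes by these folds and gave every gene the same biological spread. In the data 2805 genes were called, so these shares need not hold there. A gene that did not pass may still have changed by a small fold. Alternatives were other scalings and filters, DESeq2 1.42.0, limma-voom (limma 3.58.1), the replicate block, set as a term, each set alone and each library left out. Every within-group pair of libraries differed beyond sampling noise. The members and lists were chosen with earlier results of these data known. All 42 members are named. By rule, values in every library are given for the lowest and highest log2 fold change of each complex, and the 3 genes with the smallest p are named from each related list. Cenpb, Rad21 and Pttg1 were named beyond that rule after their values were seen. Promoter windows are from RefSeq tables of GRCm38.p6. Some genes of the related and marker lists are not reported here.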

Additional observations from a re-analysis of the deposited data

Results flagged for a closer look

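Across the 42 genes, each of the 84 groups of 4 libraries was searched for a library far from the other 3, by Dixon's ratio of the gap to the range (above the 95% critical value). By chance about 1 in 20 groups is picked out, and here 4 of 84 were (4.76%). For Oip5, control replicate 1 stood at 14.8 CPM against 11.9 to 12.4 CPM in the other controls. For Cenpn, control replicate 2 stood at 17.9 CPM against 22.3 to 22.7 CPM. For Mad1l1, control replicate 3 stood at 30.8 CPM against 23.9 to 25.0 CPM. For Cenpi, simvastatin replicate 1 stood at 7.40 CPM against 10.1 to 10.4 CPM in the other treated libraries. The 4 values came from 4 different libraries.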

How the results depend on the processing

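The count of 39 falls among the 42 genes was 38 or 39 under other scalings, tests and filters, with set as a term, with the replicate block and without any 1 library, 35 in set 1 alone and 37 in set 2 alone, with 0 rises in all of these. Over these 18 alternatives no gene changed direction, none of the 3 that did not pass came to pass, and calls ended for 6 genes. They were Cenpo in 8 alternatives, Zw10 in set 1 alone and without simvastatin replicate 3, Dsn1 and Ska2 in set 1 alone, and Cenpq and Bub3 in set 2 alone. The median log2 fold change of -1.55 was -1.81 in set 1 alone and -1.34 in set 2 alone; leaving out 1 library gave -1.63 to -1.42. All genes called numbered 2805, 1627 in set 1 alone, 2975 in set 2 alone, 3362 with set as a term, 3534 by DESeq2, and 2002 to 2462 without 1 library. For the difference between sets, a library left out leaves a set with 1 sample in an arm, assumed to vary like the others. Calls of members differed between those fits and are not counted here. Replicate numbers did not pair the libraries: same-numbered deviations correlated between -0.21 and 0.156 and 0 of 4 controls correlated best with their own number. With the replicate block 38 members fell, Cenpo no longer passing (adjusted p = 0.0661 in edgeR), and 2131 genes were called. Library totals alone in place of TMM moved the median of all genes from 0.01 to 0.04. The lowest counts in any library were 47 for Ska1 and 49 for Cenpu.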
